A study of Mus musculus with 18 samples.

Results

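The 10 genes described here are those of the heme-regulated eIF2 kinase HRI and the integrated stress response, read in mouse G1E-ER4 cells as they mature toward red cells. They were chosen by name: the platform annotation had to give the symbol Eif2ak1 (HRI), Eif2ak2 (PKR), Eif2ak3 (PERK), Eif2ak4 (GCN2), Atf4, Ddit3 (CHOP), Ppp1r15a (GADD34), Trib3, Asns or Psat1. All 10 were found among 18193 genes with a probe set of their own, on 25 of 34945 such probe sets, and all 10 passed the filter on low signal that left 12719 genes for testing. The probe set with the highest mean over all arrays stands for each gene.

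G1E-ER4 is a clonal line of immature erythroid cells that carry a disrupted Gata1 gene and a GATA1 protein joined to the ligand-binding domain of an estrogen receptor, so that estradiol turns GATA1 on. Every group is made of these same cells and differs only in hours of exposure to 20 nM estradiol: none (0 h), 3, 7, 14, 21 and 30 h, with 3 Affymetrix arrays of total RNA at each time and 18 in all. The labels name the arrays of a time biological replicates without saying that they were separate cultures, so each p-value rests on the scatter among the arrays of a time, part of which can be technical. Cells kept without estradiol for matched hours were not analysed here, so GATA1 activity, the hormone and time in culture cannot be told apart.

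The integrated stress response begins with kinases that phosphorylate the translation factor eIF2. HRI answers to low heme, PKR to double-stranded RNA, PERK to misfolded protein in the endoplasmic reticulum and GCN2 to uncharged tRNA. Phosphorylated eIF2 blocks its exchange factor eIF2B, which lowers protein synthesis in general while the mRNA of the transcription factor ATF4 is translated more. ATF4 turns on genes of amino acid supply and stress, among them CHOP, TRIB3 and GADD34, and GADD34 directs a phosphatase that removes the phosphate from eIF2. In red cell precursors HRI is the main kinase of the pathway and matches globin synthesis to heme. Arrays read mRNA and show neither phosphorylation of eIF2 nor translation of Atf4.

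Promoter sequence is shown for 3 members. They are Asns, the only one with the ATF4 element searched, Ppp1r15a, with the largest rise, and HRI itself. The windows are the 250 bases before the annotated start in RefSeq (build GRCm38.p6), written 5′ to 3′ along the gene. All 10 members matched this table, with 12 windows between them. Capitals mark a match to the C/EBP-ATF response element TGATGNAA, the site type that ATF4 binds with a C/EBP partner, or to a GATA element (AGATAA or AGATAG or TGATAA or TGATAG), searched on both strands. Ppp1r15a was picked for display after its values were seen.
Asns, chr6:7693210-7693459, minus strand: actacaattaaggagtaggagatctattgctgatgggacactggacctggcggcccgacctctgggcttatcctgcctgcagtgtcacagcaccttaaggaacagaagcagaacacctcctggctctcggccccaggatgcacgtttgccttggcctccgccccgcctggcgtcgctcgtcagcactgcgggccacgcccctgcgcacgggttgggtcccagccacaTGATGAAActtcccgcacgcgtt
Ppp1r15a, chr7:45526269-45526518, minus strand: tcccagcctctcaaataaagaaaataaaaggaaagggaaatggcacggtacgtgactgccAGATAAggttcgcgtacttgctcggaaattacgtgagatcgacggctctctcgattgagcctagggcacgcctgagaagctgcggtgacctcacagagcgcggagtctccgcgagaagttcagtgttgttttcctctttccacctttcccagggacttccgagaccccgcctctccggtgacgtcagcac
Eif2ak1, chr5:143817542-143817791, plus strand: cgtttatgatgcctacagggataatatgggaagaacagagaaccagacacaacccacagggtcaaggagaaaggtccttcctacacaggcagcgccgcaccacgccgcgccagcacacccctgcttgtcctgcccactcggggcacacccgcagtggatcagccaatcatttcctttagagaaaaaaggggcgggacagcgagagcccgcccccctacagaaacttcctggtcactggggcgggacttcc
The Asns window holds the only C/EBP-ATF match among the members' windows, at position -23 from the start, and 3.45% of 32851 such windows in the table hold this motif. The Ppp1r15a window has a GATA match at -190 and no C/EBP-ATF match. The Eif2ak1 window has neither. Of the other members, Atf4 has a GATA match at -39 and Psat1 at -137 in 1 of its windows, and 26.5% of all windows hold at least 1 of these GATA elements. A match describes the letters of a window and is not evidence of binding. Other types of ATF4 site, and bases farther from the start, were not searched. The lack of a match therefore does not show that a member has no ATF4 site.

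Array medians lay between 4.04 and 4.09 on the log2 scale, and no arrays held identical values (0). Of 12 erythroid marker genes 9 were matched, and their mean level rose from 8.10 to 8.16 on the 0 h arrays to 9.76 to 9.84 at 30 h, with Hba-a1 below the arrays' 40th percentile at both times. Most of this rise came from Alas2 and Slc4a1, which gained 6.49 and 6.08. Klf1, Hbb-b2 and Tfrc gained 0.80, 0.38 and 0.35, and Epor, Hba-a2 and Epb42 were not called at 30 h (0.12, 0.14 and 0.23). Mean levels at 0 h and 30 h were 4.52 to 4.71 and 2.82 to 3.06 for 6 mast cell markers, 5.09 to 5.14 and 4.60 to 4.67 for 7 megakaryocyte markers, 3.09 to 3.31 and 3.16 to 3.36 for 9 granulocyte and macrophage markers, and 3.24 to 3.35 and 3.38 to 3.55 for 7 lymphoid markers. The mast cell markers Cpa3 and Ms4a2 went from 8.08 and 5.57 at 0 h to 2.66 and 2.14 at 30 h. These 30 h levels lay below the arrays' 40th percentile of 3.28 to 3.35, so no size is given for the falls. Hdc fell by 1.14 at 30 h, and Mcpt8 and Cma1 were not called. Megakaryocyte markers went both ways: Gp5 and Pf4 fell by 3.99 and 2.34, Itgb3 and Gp9 rose by 2.05 and 0.66, and Itga2b was not called. The signal gap between 3′ and 5′ control probe sets, which widens with shorter labelled RNA, went from 1.89 at 0 h to 2.20 at 30 h for Actb, from 1.13 to 1.52 for Gapdh and from 1.79 to 2.41 for Tfrc. The part of these shifts in the results was not tested. In bulk RNA, fewer cells of a type and less RNA per cell cannot be told apart. The deposited values place the median change of all tested genes at 0.09 at 30 h, and scaling to the spiked hybridisation controls instead moves it to 0.30, so small changes are relative to the scale used.

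The 10 members took different courses, also among genes of the same role. HRI and Ppp1r15a climbed through the course, Ddit3 rose between 7 and 21 h, and Trib3 fell first and then passed its starting level. Atf4 itself moved little on the probe set used. PKR fell, Psat1 fell only late, and Asns stayed near 12.75 on every array. By 30 h, limma with Benjamini-Hochberg adjustment over all tested genes called 4 members higher than at 0 h (Eif2ak1, Ddit3, Ppp1r15a and Trib3), where 36.6% of all tested genes were called higher, and 2 lower (Eif2ak2 and Psat1), where 33.0% were. These counts are close to the background, so the members' number says little and their sizes and timing carry the description. The median change of the members was 0.15.

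At earlier times the counts stood on either side of their backgrounds. At 3 h, 2 members were higher (background 11.2%) and 2 lower (14.7%). At 7 h, 3 were higher (15.3%) and 2 lower (16.3%). At 14 h, 5 were higher (22.2%) and 1 lower (22.7%), and at 21 h, 5 were higher (31.4%) and 2 lower (28.6%). With scaling to the hybridisation controls the counts higher and lower were 0 and 1 at 3 h, 2 and 1 at 7 h, 5 and 0 at 14 h, 4 and 1 at 21 h, and 4 and 2 at 30 h. The percentages above do not apply on that scale. There the 12719 tested genes gave 463 higher and 285 lower at 3 h, and 548 and 653 at 7 h. They gave 2791 and 812 at 14 h, 2402 and 2327 at 21 h, and 4999 and 2585 at 30 h. An F test over all times called 7 of the 10 members, against 74.3% of all tested genes. It did not call Eif2ak3 (adjusted p = 0.113), Eif2ak4 (adjusted p = 0.118) or Asns (adjusted p = 0.221).

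**Figure D1:**
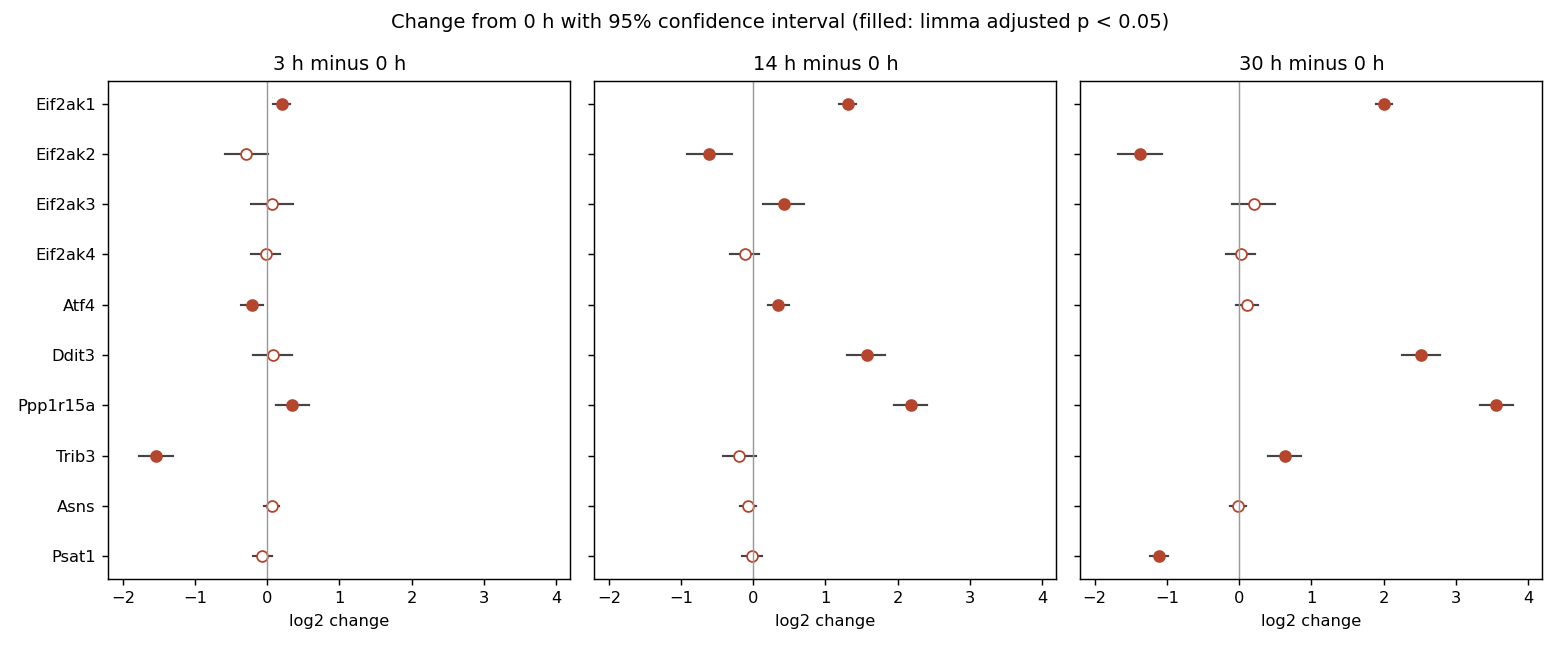
Log2 change from 0 h of each member at 3, 14 and 30 h, with 95% confidence intervals from the limma fit of 18 arrays and filled points for an adjusted p under 0.05. Trib3 stands apart on the low side at 3 h (-1.54), and Ppp1r15a (3.56), Ddit3 (2.52) and Eif2ak1 (2.0) on the high side at 30 h.

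Steps between neighbouring times show when the members moved. From 3 to 7 h, 4 members rose (background 9.81%) and 0 fell (5.14%, and 0 at an unadjusted p under 0.05, limma). That 4 became 2 without 3 h replicate 3 and likewise without 7 h replicate 1, since Atf4 and Trib3 then lost their calls. From 7 to 14 h, 5 rose (11.5%) and 0 fell (10.8%, and 1 at an unadjusted p under 0.05), and from 14 to 21 h, 4 rose (15.7%) and 0 fell (17.5%, and 2 at an unadjusted p under 0.05). The 5 that rose from 7 to 14 h were Eif2ak1, Atf4, Ddit3, Ppp1r15a and Trib3, and the same genes without Atf4 rose from 14 to 21 h. The last step turned: from 21 to 30 h, 2 members rose (18%), namely Eif2ak1 and Ppp1r15a, and 3 fell (22.5%), namely Eif2ak2, Atf4 and Psat1. Leaving out 21 h replicate 2, 30 h replicate 1 or 30 h replicate 3 took the 2 that rose to 1, and leaving out 21 h replicate 3 or 30 h replicate 3 took the 3 that fell to 1. Control scaling called 1, 5, 3 and 0 members higher at these steps in order, and 1 lower at the last step. Over all tested genes it called 127, 1312, 122 and 1680 higher in the same order, and 753 lower at the last step.

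HRI mRNA rose at every step on the deposited scale. Its log2 values were 10.01, 10.10 and 10.02 on the 0 h arrays, 10.31, 10.24 and 10.16 at 3 h, and 10.76, 10.82 and 10.81 at 7 h. They were 11.29, 11.38 and 11.37 at 14 h, 11.82, 11.81 and 11.71 at 21 h, and 12.04, 12.06 and 12.04 at 30 h. No array of a later time overlapped the arrays of the time before it. Relative to 0 h, HRI gained 0.20 by 3 h (SE 0.054, limma adjusted p = 0.0141) and 0.76 by 7 h. The gain grew to 1.31 by 14 h and 1.74 by 21 h, and it reached 2.0 by 30 h, a 4.01-fold rise (adjusted p = 2.44e-14). By 7 h HRI had made 37.8% of its 30 h rise, by 14 h 65.1% and by 21 h 86.6%. Among the tested genes, 2.07% rose more than HRI at 30 h. The 3 h call was lost when replicate 1 of 0 h (adjusted p = 0.0593) or replicate 1 of 3 h (adjusted p = 0.0709) was left out, and with control scaling (change 0.29, adjusted p = 0.522). Control scaling also took away the calls of the steps from 3 to 7 h (0.42, adjusted p = 0.396), from 14 to 21 h (0.21, adjusted p = 0.534) and from 21 to 30 h (0.46, adjusted p = 0.083).

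**Figure D2:**
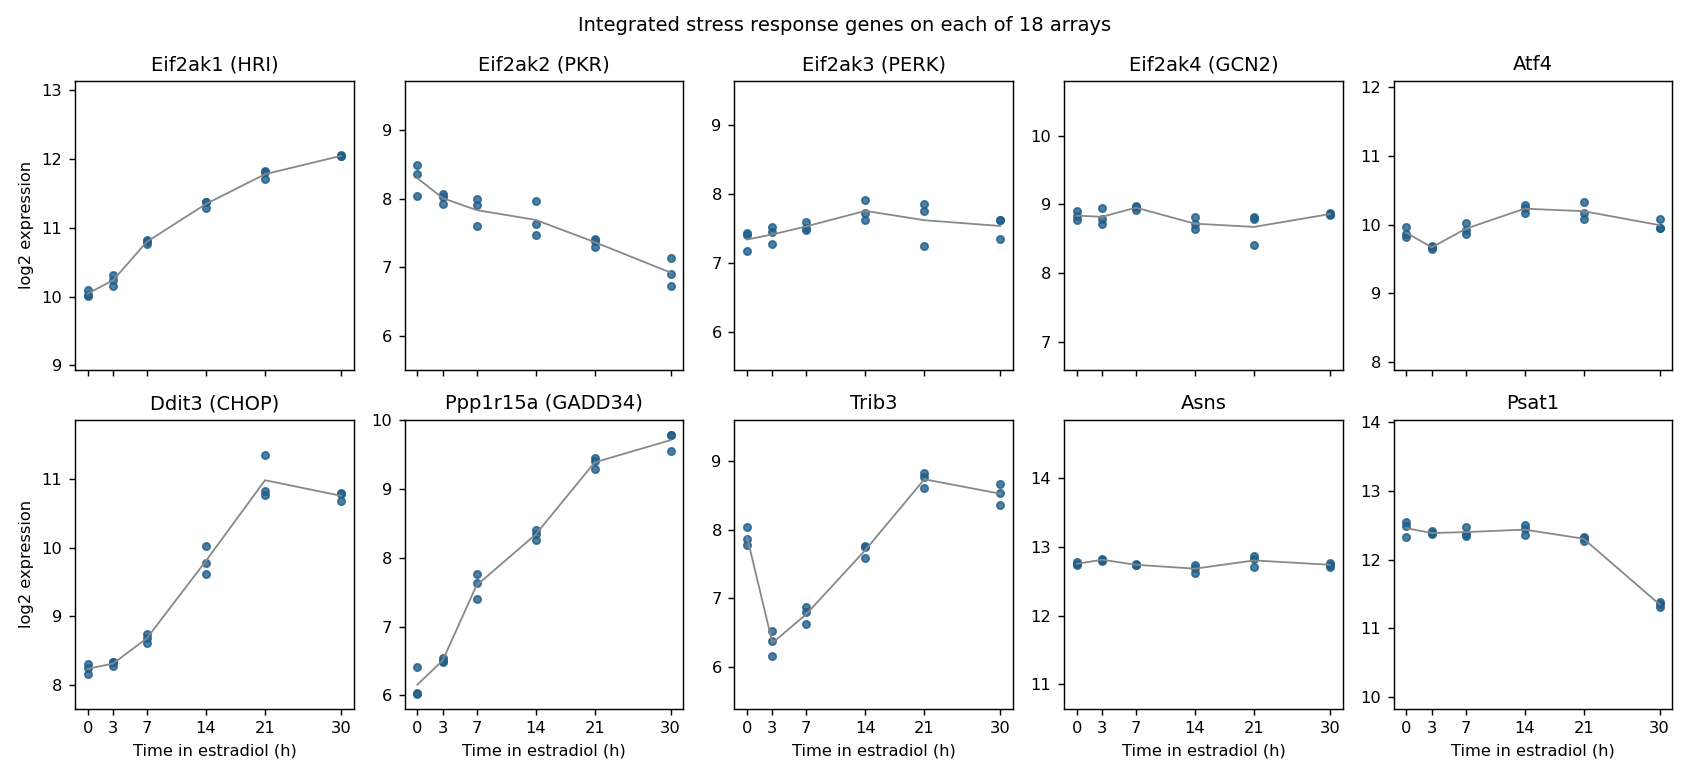
Log2 expression of the 10 members on each of the 18 arrays against hours in estradiol, points for arrays and lines through the time means, with every panel spanning the same number of log2 units. Eif2ak1 and Ppp1r15a climb without overlap between neighbouring times, Trib3 dips at 3 h, and Asns stays between 12.62 and 12.87.

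PKR, the double-stranded RNA sensor, went the other way. Eif2ak2 read 8.36, 8.49 and 8.04 at 0 h, 8.07, 7.92 and 8.03 at 3 h, and 7.60, 7.99 and 7.91 at 7 h. It then read 7.97, 7.47 and 7.63 at 14 h, 7.41, 7.30 and 7.39 at 21 h, and 7.13, 6.91 and 6.73 at 30 h. The 0 h arrays lay above all arrays from 7 h on, while neighbouring times overlapped up to 14 h. PKR fell by 0.47 at 7 h (adjusted p = 0.0196), by 0.93 at 21 h and by 1.37 at 30 h (SE 0.14, limma adjusted p = 2.77e-07), a 2.59-fold decrease. The 7 h call was lost when replicate 1 or 2 of 0 h (adjusted p = 0.0657 and 0.0937) or replicate 1 of 7 h (adjusted p = 0.10) was left out. Control scaling (-0.52, adjusted p = 0.103) and a fit of only the arrays compared (adjusted p = 0.0528) took it away too. The 14 h call (-0.61, adjusted p = 0.00237) was lost with control scaling (-0.38, adjusted p = 0.156). The step from 21 to 30 h (-0.44, adjusted p = 0.0209) was lost with control scaling (-0.25, adjusted p = 0.381) and without 21 h replicate 1 or 3 or 30 h replicate 2 or 3 (adjusted p from 0.0521 to 0.0978). The other PKR probe sets fell at 30 h by 1.18 and by 1.48.

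PERK, the kinase of the endoplasmic reticulum, depended on the probe set read. The probe set used for Eif2ak3 spanned 7.17 to 7.44 at 0 h, 7.63 to 7.92 at 14 h and 7.35 to 7.63 at 30 h. The 14 h arrays lay above the 0 h arrays, and by 30 h the groups overlapped. By 14 h it had gained 0.42 (SE 0.14, limma adjusted p = 0.0208), and by 30 h the difference was 0.20 (95% interval -0.10 to 0.49, adjusted p = 0.216). Without 0 h replicate 3 or 14 h replicate 3 the 14 h call was lost (adjusted p = 0.0899 and 0.0915), and at 21 h the gene was called without 21 h replicate 3 (change 0.47, adjusted p = 0.00242). The other Eif2ak3 probe sets were dimmer, with means of 3.51 and 4.68. The brighter of them rose by 0.79 at 30 h (limma adjusted p = 0.000107 over all probe sets). The dimmest, prone to cross-hybridise, had means of 3.16 at 0 h and 2.88 at 3 h, below the 40th percentile of those arrays (3.22 to 3.26). It read 4.49 at 30 h, and no size is given for its rise.

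GCN2, the amino acid sensor, gave 8.77 to 8.91 at 0 h, 8.92 to 8.98 at 7 h, 8.41 to 8.82 at 21 h and 8.85 to 8.87 at 30 h. The 30 h arrays fell inside the range of the 0 h arrays. The change at 30 h was 0.02 (95% interval -0.18 to 0.22, limma adjusted p = 0.862), or 0.22 with control scaling (adjusted p = 0.315). Leaving out 21 h replicate 3 or 21 h replicate 1 brought single steps past the threshold (14 h against 7 h at -0.23, adjusted p = 0.0144, 21 h against 0 h at -0.24, adjusted p = 0.0482, and 30 h against 21 h at 0.26, adjusted p = 0.0492).

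The balance among the kinase mRNAs, taken within each array on the probe sets used, therefore moved toward HRI from 0 h to 30 h. The log2 difference Eif2ak1 minus Eif2ak2 was 1.61 to 1.98 on the 0 h arrays and 4.91 to 5.31 on the 30 h arrays. Eif2ak1 minus Eif2ak3 went from 2.57 to 2.85 at 0 h to 4.41 to 4.71 at 30 h, and Eif2ak1 minus Eif2ak4 from 1.11 to 1.33 to 3.17 to 3.21. The 0 h and 30 h arrays did not overlap in any of these differences. The size of the shift against PERK depends on the probe set, since the dimmer Eif2ak3 probe sets rose by 1.33 and 0.79 at 30 h. Probe sets of different genes bind with different strength, so only the shift between times is readable, not which kinase mRNA is the more abundant.

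Atf4, the transcription factor of the pathway, moved within a narrow band on the probe set used. Its arrays read 9.97, 9.82 and 9.86 at 0 h, 9.69, 9.67 and 9.65 at 3 h, and 10.03, 9.93 and 9.86 at 7 h. Later values were 10.29, 10.17 and 10.24 at 14 h, 10.17, 10.09 and 10.33 at 21 h, and 9.95, 10.08 and 9.95 at 30 h. The 3 h arrays lay below, and the 14 h and 21 h arrays above, all 0 h arrays, and the 30 h arrays overlapped them. Atf4 fell by 0.21 at 3 h (SE 0.070, limma adjusted p = 0.0362), rose by 0.35 at 14 h (adjusted p = 0.00066) and by 0.31 at 21 h (adjusted p = 0.00114), and differed by 0.11 at 30 h (95% interval -0.04 to 0.26, adjusted p = 0.17).

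The 3 h fall of Atf4 was fragile. It was lost without 0 h replicate 1 or 3 and without any single 3 h array (limma adjusted p from 0.0575 to 0.150), and with control scaling (change -0.12, adjusted p = 0.879). The drop of 0.20 from 21 to 30 h (adjusted p = 0.0315) was lost without 21 h replicate 3, 30 h replicate 1 or 30 h replicate 3 (adjusted p = 0.138, 0.098 and 0.10), and control scaling took it to -0.01. The 21 h rise was lost with control scaling (0.33, adjusted p = 0.205).

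Ddit3, which encodes the stress factor CHOP, rose strongly from 14 h on. It read 8.30, 8.16 and 8.25 at 0 h, 8.33, 8.33 and 8.28 at 3 h, and 8.74, 8.69 and 8.61 at 7 h. The 14 h arrays read 10.02, 9.62 and 9.78, the 21 h arrays 10.76, 10.83 and 11.35, and the 30 h arrays 10.80, 10.68 and 10.78. From 7 h on, every array lay above all 0 h and 3 h arrays, with the highest single value at 21 h. Ddit3 had gained 0.44 by 7 h (limma adjusted p = 0.0125), 1.57 by 14 h and 2.74, or 6.69-fold, by 21 h. Its 30 h gain was 2.52 (SE 0.12, adjusted p = 2.94e-11). At 21 h, 0.448% of tested genes had risen more. The 7 h call was lost with control scaling (0.40, adjusted p = 0.287). From 21 to 30 h the difference was -0.23 (adjusted p = 0.167).

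Ppp1r15a, whose protein GADD34 guides the phosphatase that resets eIF2, had the largest rise among the members. Its arrays read 6.41, 6.02 and 6.04 at 0 h, 6.48, 6.55 and 6.50 at 3 h, and 7.63, 7.77 and 7.40 at 7 h. They read 8.35, 8.26 and 8.41 at 14 h, 9.41, 9.30 and 9.46 at 21 h, and 9.79, 9.56 and 9.79 at 30 h. Each time lay above the one before with no overlap, though the first 0 h array came close to the 3 h values. Ppp1r15a had risen by 0.35 after 3 h (SE 0.11, limma adjusted p = 0.0248), by 1.44 after 7 h and by 2.18 after 14 h. The rise was 3.23 after 21 h and ended at 3.56, or 11.8-fold, after 30 h (adjusted p = 9.35e-14). Only 0.385% of tested genes rose more at 30 h. The 3 h call was lost without 0 h replicate 2 or 3 and without any single 3 h array (adjusted p from 0.0511 to 0.103) and with control scaling (0.45, adjusted p = 0.239), and the step from 21 to 30 h (0.32, adjusted p = 0.0257) without 21 h replicate 2, 30 h replicate 1 or 30 h replicate 3 (0.0913, 0.0868 and 0.0861) or with control scaling (0.51, adjusted p = 0.0628). The gene has 1 probe set.

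Trib3, a pseudokinase that ATF4 and CHOP induce and that holds ATF4 back, fell before it rose. It read 7.86, 7.78 and 8.04 at 0 h, 6.38, 6.52 and 6.16 at 3 h, and 6.88, 6.80 and 6.63 at 7 h. It returned to 7.59, 7.77 and 7.75 at 14 h, and then read 8.83, 8.61 and 8.76 at 21 h and 8.54, 8.36 and 8.67 at 30 h. The arrays of 3 and 7 h lay below, and those of 21 and 30 h above, all 0 h arrays. Trib3 fell by 1.54 at 3 h (SE 0.11, limma adjusted p = 5.62e-08), a 2.91-fold decrease, and ranked 12696 from the top among 12719 tested genes. It was still lower by 1.12 at 7 h, differed by -0.19 at 14 h (adjusted p = 0.176), and was higher by 0.84 at 21 h (adjusted p = 4.4e-06) and by 0.63 at 30 h (adjusted p = 6.84e-05).

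Control scaling kept the calls of Trib3 at 3 h (-1.44), 21 h (0.85) and 30 h (0.83). Its other probe set fell by 1.22 at 3 h and rose by 0.65 at 30 h. Ddit3 was measured on the same 3 h arrays at a change of 0.08 (95% interval -0.19 to 0.34), and Ppp1r15a at 0.35. The early fall of Trib3 thus had no counterpart in Ddit3 or Ppp1r15a. Atf4 was called lower by 0.21 at 3 h, though that call was fragile. Other genes of the pathway that fell at 3 h, such as Jund, are given below.

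Asns, asparagine synthetase and the member with the C/EBP-ATF element shown above, stayed level. Its arrays spanned 12.73 to 12.78 at 0 h, 12.80 to 12.83 at 3 h, 12.73 to 12.75 at 7 h, 12.62 to 12.74 at 14 h, 12.71 to 12.87 at 21 h and 12.71 to 12.77 at 30 h. The time means differed by at most 0.13. At 30 h the change was -0.02 (SE 0.052, 95% interval -0.13 to 0.09, limma adjusted p = 0.793), or 0.19 with control scaling (adjusted p = 0.403). A further probe set, at a mean of 12.52, gave -0.12 at 30 h (adjusted p = 0.056 over all probe sets). With probe sets prone to cross-hybridise left out, that probe set stands for Asns and the fall of 0.12 was called (adjusted p = 0.043).

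Psat1, the serine synthesis enzyme phosphoserine aminotransferase, was flat until a late fall. It read 12.55, 12.49 and 12.33 at 0 h, stayed within 12.35 to 12.50 from 3 to 14 h, and read 12.31, 12.27 and 12.33 at 21 h. The 30 h arrays, at 11.31, 11.38 and 11.35, lay below every other array. Psat1 fell by 1.11 at 30 h (SE 0.062, limma adjusted p = 1.3e-10), a 2.16-fold decrease, of which 0.96 came after 21 h (adjusted p = 9.24e-09). Its other probe set fell by 0.69 at 30 h. The difference of -0.15 at 21 h (adjusted p = 0.045) lost its call under most alternatives, among them 0 h replicate 1 left out (-0.10, adjusted p = 0.199).

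Probe sets of the same gene agreed in direction for HRI, PKR, Ddit3, Trib3 and Psat1 at 30 h. For HRI, 4 of 5 probe sets passed the filter and rose by 1.5 to 2.73. For Ddit3 the other probe set rose by 1.66, and its step from 21 to 30 h was 0.22 (adjusted p = 0.173). Atf4 and Eif2ak3 disagreed: an Atf4 probe set prone to cross-hybridise rose to 0.80 at 30 h (limma adjusted p = 0.00032 over all probe sets), a dim one changed by -0.07 (adjusted p = 0.661), and with the mean of its probe sets Atf4 was called higher at 30 h (0.28, adjusted p = 0.00401) and not at 14 h (0.17, adjusted p = 0.0802). For these genes the choice of probe set settles the call. In all, 23 of the 25 member probe sets passed the filter.

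**Figure D3:**
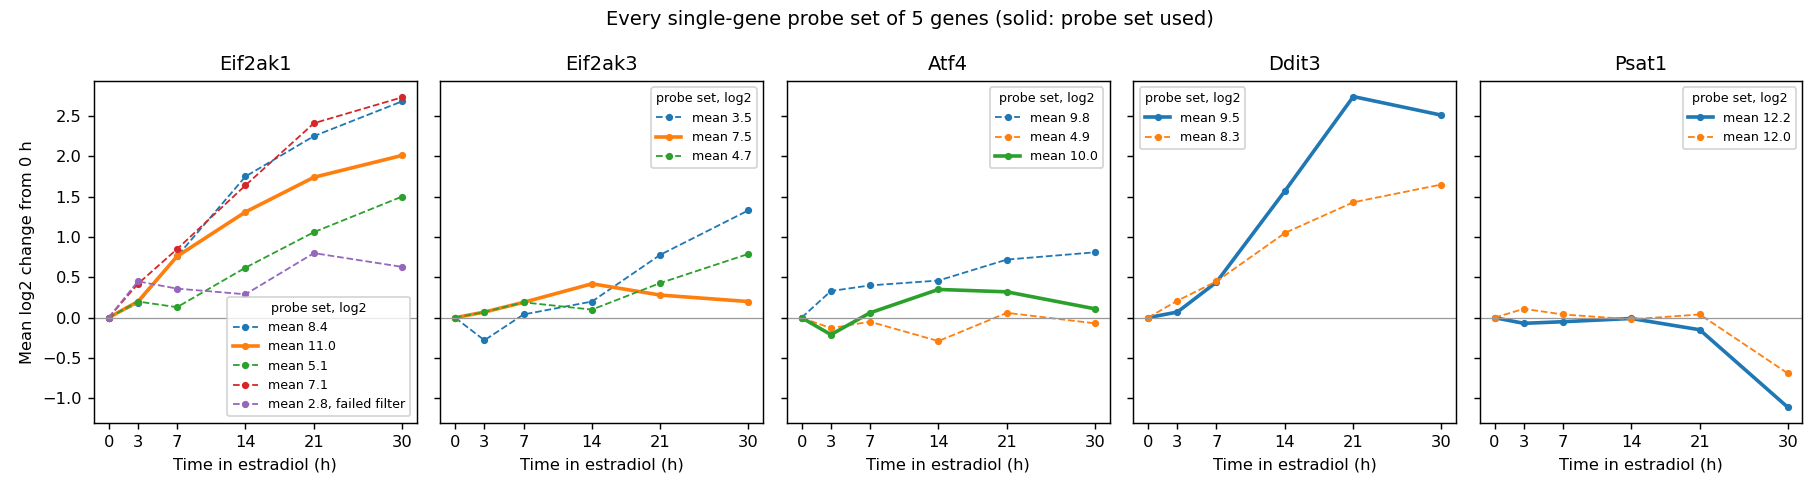
Mean log2 change from 0 h against hours in estradiol for every single-gene probe set of 5 members, with the probe set used drawn solid and labelled by its mean level. The lines of Eif2ak1, Ddit3 and Psat1 share a direction at 30 h, while Atf4 lines end between -0.07 and 0.80 and Eif2ak3 lines between 0.20 and 1.33.

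Time courses were compared as a description over the 6 time means, which share arrays and scaling. The course of HRI correlated with that of Ppp1r15a at r = 0.998, of Ddit3 at 0.968 and of PKR at -0.957. Atf4 stood at 0.710 with HRI, 0.735 with Ddit3 and 0.685 with Trib3. Among 3400 tested genes whose time means span at least 1 log2 unit, the courses most like HRI were those of Bbs1 (r = 0.9996), Alas2 (0.999), Tmem29 (0.9989) and Sgsm3 (0.9989). Alas2, which encodes the first enzyme of heme synthesis in red cells, went from 5.85 to 12.34 over the course. The courses most like Atf4 were Smim6 (0.9921), Rgs12 (0.9479), Depdc1b (0.9469) and Lama5 (0.9451), and for Asns the highest r was 0.5913, with Trbv13-2, followed by Sgpp1 (0.5596), Ms4a3 (0.5477) and Sash3 (0.5459). With 6 points, and for Asns almost no movement, these values rank courses and say no more.

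The wider pathway was read through 9 lists with 98 other genes, of which 93 were matched by name and 88 tested. At 30 h, 27 of the 88 rose and 38 fell by the limma test at an adjusted p under 0.05, beside 36.6% and 33.0% of all tested genes. At 21 h the numbers had been 32 and 25, beside 31.4% and 28.6%. Control scaling gave 28 and 22 of the 88 at 30 h, beside 4999 and 2585 of all tested genes on that scale (4651 and 4195 in the main fit). At 21 h it gave 15 and 14, beside 2402 and 2327 of all tested genes (3989 and 3635 in the main fit). The fewer falls at 30 h thus went with fewer falls over all genes. Genes named from a list are those with the 4 largest changes at 30 h.

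Of 7 tested subunits of eIF2 and its exchange factor eIF2B, 5 were lower at 30 h and 0 higher (0 also at an unadjusted p under 0.05, limma), with a median of -0.72 beside 0.09 for all tested genes. Over all tested genes 33.0% were lower and 36.6% higher. Eif2b1 went from 9.51 ± 0.085 (SD, n = 3) to 8.43 ± 0.090, Eif2s3x from 11.61 ± 0.094 to 10.65 ± 0.088, Eif2b3 from 9.45 ± 0.051 to 8.58 ± 0.044 and Eif2b5 from 9.65 ± 0.046 to 8.93 ± 0.046. Eif2s3x was the only eIF2 subunit of the 2 tested that fell, since Eif2s2 was not called (-0.10, adjusted p = 0.0681), and Eif2b2 was not called either (0.10, adjusted p = 0.171). Eif2s2 and Eif2b2 are named after their values were seen. With control scaling 4 of the 7 were lower, beside 2585 of 12719 tested genes, and the median was -0.52 beside 0.30.

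Regulators of the kinases and of the eIF2 phosphatase moved both ways, with 5 of 10 higher and 3 lower at 30 h. All tested genes gave 36.6% and 33.0%, and the list median was 0.20. Impact, an inhibitor of GCN2 activation, rose from 7.19 ± 0.053 to 9.13 ± 0.075, a gain of 1.94 (limma adjusted p = 4.91e-13). Ppp1r15b, whose protein CReP is the constitutive counterpart of GADD34 in guiding a phosphatase to eIF2, rose by 0.95 (adjusted p = 3.93e-10), with 3 h arrays already above those of 0 h. Gcn1, the activator of GCN2 on ribosomes, fell by 0.65. Oma1, the mitochondrial protease that relays stress to HRI through DELE1, fell from 8.78 ± 0.0096 to 7.78 ± 0.062. Control scaling kept these 4 calls.

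ATF4 partners and related factors rose in 4 of 6 tested genes at 30 h and fell in 0 (1 at an unadjusted p under 0.05, limma), with a median of 0.43. Over all tested genes 36.6% were higher and 33.0% lower. Jun rose by 1.77, Atf5, a factor translated under the same control as ATF4, by 1.69, Jund by 0.52 and Nfe2l2 by 0.35. Jund read 10.94 to 11.04 at 0 h and 9.49 to 9.53 at 3 h, so that it fell by 1.47 (adjusted p = 3.29e-09) when Trib3 fell. Atf5 read 9.42 to 9.59 at 0 h, 8.87 to 8.89 at 3 h and 11.13 to 11.20 at 30 h. At 3 h the arrays of Jund and Atf5 lay below, and at 30 h above, all 0 h arrays. With control scaling the 3 h change of Jund was -1.38 and still called, and that of Atf5 was -0.51 (adjusted p = 0.152).

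Enzymes of amino acid and folate metabolism that ATF4 is known to drive gave 3 of 9 higher and 3 lower at 30 h. These counts are close to the 36.6% and 33.0% of all tested genes and say little about the enzymes. The list median was 0.02. Psph, the serine synthesis enzyme that acts after PSAT1, fell from 9.02 ± 0.062 to 7.03 ± 0.083, a change of -1.99 (limma adjusted p = 5.09e-14). Aldh1l2 and Shmt2, mitochondrial enzymes of the folate cycle, fell by 1.10 and by 0.79, and Cbs rose by 0.43 (adjusted p = 0.0431). Mthfd2, a further mitochondrial folate enzyme, had gained 0.86 by 21 h and 0.30 by 30 h (adjusted p = 0.000274). Phgdh, the first enzyme of serine synthesis, changed by 0.02 (adjusted p = 0.917). Its 0 h mean of 4.24 lay near the array medians of 4.04 to 4.09, so the signal was dim and a change could be missed. Mthfd2 and Phgdh are named after their values were seen. Control scaling kept the falls of Psat1, Psph and Shmt2 at -0.91, -1.79 and -0.59.

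Amino acid transporters linked to ATF4 gave 3 of 9 higher and 4 lower at 30 h, beside 36.6% and 33.0% of all tested genes. Slc6a9, the glycine carrier GLYT1 that supplies heme synthesis, read 9.21 to 9.23 at 0 h, 8.44 to 8.59 at 3 h and 11.15 to 11.31 at 30 h. It fell by 0.72 at 3 h and rose by 2.01 at 30 h (limma adjusted p = 4.45e-14). Slc1a4 fell by 1.26 and Slc7a1 by 0.92. Slc7a11, the cystine carrier, is the fourth of those lower, but it passed the filter through 3 arrays of 0 and 3 h alone. It read 2.87 to 3.56 at 0 h and 2.1 to 2.61 at 30 h, the latter below the arrays' 40th percentile of 3.20 to 3.35, so no size is given for its fall. Stress outputs of ATF4 and CHOP gave 5 of 11 higher and 4 lower at 30 h, beside the same shares of all tested genes. Nupr1, a stress-induced chromatin protein, read 7.52 to 7.57 at 0 h, 6.81 to 6.85 at 3 h and 10.59 to 10.65 at 30 h, a final gain of 3.07 (adjusted p = 3.52e-13). The 3 h falls of Slc6a9 and Nupr1 kept their calls with control scaling (adjusted p = 0.0388 and 0.0472). Sesn2 rose by 0.97, Vegfa fell by 2.71 and Ddit4 by 1.03.

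**Figure D4:**
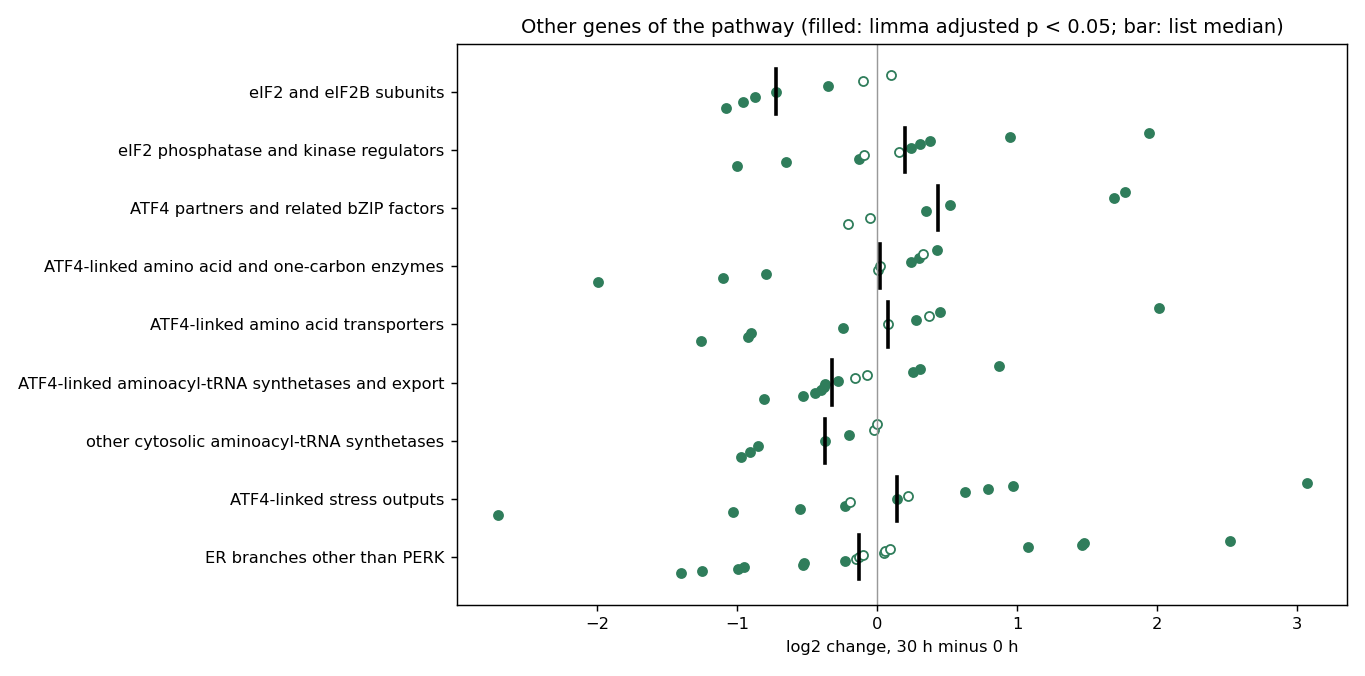
Log2 change at 30 h against 0 h of every tested gene in the 9 pathway lists, with filled points for a limma adjusted p under 0.05 and a bar at each list's median. Medians run from -0.72 for eIF2 and eIF2B subunits to 0.43 for ATF4 partners and related factors.

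Aminoacyl-tRNA synthetases, which charge tRNA with amino acids, were read as those known to follow ATF4, with the tRNA exporter Xpot, and the remaining cytosolic ones. Of 12 tested ATF4-linked genes, 8 were higher and 1 lower at 21 h (median 0.28), beside 31.4% and 28.6% of all tested genes. At 30 h, 3 were higher and 7 lower (median -0.32), beside 36.6% and 33.0%. Of 7 other synthetases, 0 were higher and 3 lower at 21 h (0 higher at an unadjusted p under 0.05 too, limma), and 0 and 5 at 30 h (again 0 higher unadjusted). With control scaling the ATF4-linked genes gave 2 higher and 0 lower at 21 h and 3 and 1 at 30 h, and the others 0 and 1 at 21 h and 0 and 3 at 30 h. That scaling called 2402 of all tested genes higher and 2327 lower at 21 h, and 4999 and 2585 at 30 h. The difference between the lists was not tested.

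Aars, the alanine synthetase, was the exception among those named: it read 10.93 ± 0.074 at 0 h, 11.93 at 21 h and 11.80 ± 0.057 at 30 h, a gain of 0.87 (limma adjusted p = 7.57e-09). Gars stood at 11.33 ± 0.095 at 0 h, 11.32 at 21 h and 10.52 ± 0.045 at 30 h, so that it fell by 0.80 in the last interval (adjusted p = 4.81e-08). Eprs and Mars1 fell by 0.53 and by 0.44 at 30 h, and were not called with control scaling (adjusted p = 0.133 and 0.301). Kars, Farsb, Vars and Rars of the other list fell by 0.97, 0.91, 0.85 and 0.37, the last of them not called with control scaling (adjusted p = 0.457).

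**Figure D5:**
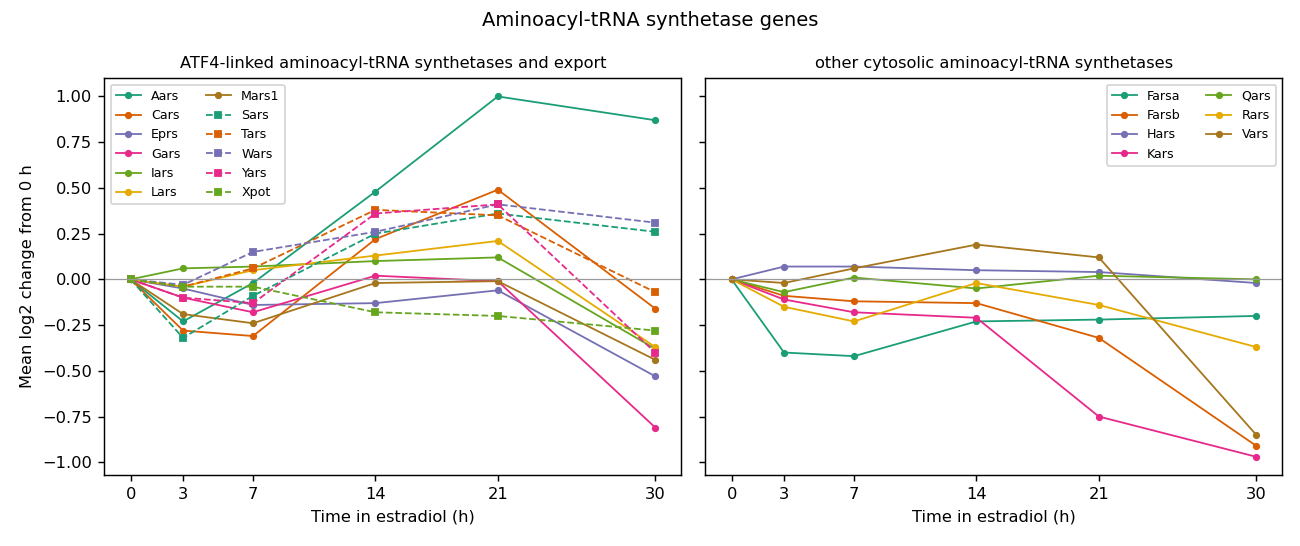
Mean log2 change from 0 h against hours in estradiol for each tested synthetase gene, ATF4-linked genes on the left and other cytosolic synthetases on the right. On the left Aars reaches 1.0 at 21 h and Gars ends at -0.81, and on the right Kars ends at -0.97.

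The branches of the unfolded protein response that do not run through PERK gave 4 of 17 higher and 7 lower at 30 h. All tested genes gave 36.6% and 33.0%. The median of these branches was -0.13 beside 0.09 for all tested genes, and 0.08 beside 0.30 with control scaling. Their sensors Atf6 and Ern1 rose from 7.51 ± 0.10 to 10.03 ± 0.051 and from 8.25 ± 0.020 to 9.74 ± 0.048, gains of 2.52 and 1.48 (limma adjusted p = 4.26e-14 and 3.1e-10). The cochaperone Dnajb9 rose by 1.46. The folding enzyme Pdia4 fell by 1.40 (adjusted p = 6.98e-06).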

How the data were processed

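Expression was read on 18 arrays of 1 mouse cell line at 6 times. The authors deposited log2 values of 45101 probe sets, 1 for each array. Not given in the sources used here are their summarising, background and scaling methods. Equal array medians make each change relative to the middle of all genes. No detection calls were used here.

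The platform annotation gave the gene names, leaving out 64 control probe sets and probe sets with several genes (932) or none. The highest-mean probe set stood for a gene, tested if it passed the 40th percentile of the array on 3 arrays or more. All arrays were fitted with limma 3.58.1 (R 4.3.3), 1 mean per time, 12 residual degrees of freedom, two-sided, Benjamini-Hochberg over 12719 genes per comparison, called at adjusted p under 0.05; 3 arrays per time limit the precision. Standard errors and intervals (95%) come from this fit. Code was tested on simulated data.

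The members, the lists and the naming rule (all members, 4 genes per list, 4 courses most like Eif2ak1, Atf4 and Asns) were chosen with earlier results of these data known. Replicate numbers did not pair arrays. Alternatives were other scalings, filters, probe-set rules, variance models, a replicate block, omission of single arrays and a 2-fold minimum. Columns of no listed sample numbered 0.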

Additional observations from a re-analysis of the deposited data

How the results depend on the processing

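Of the members' values recomputed under 12 other settings and with each of 18 arrays left out, 2569 kept their side of the threshold, 105 lost a call, 24 gained one and 2 reversed. Of the 2569, 2528 also kept their sign, and 41 changed sign without a call in either fit. The 2 reversed values were those of Eif2ak3 with the mean of its probe sets, called higher at 21 h than at 14 h (0.26, adjusted p = 0.0389) and at 30 h than at 21 h (0.28, adjusted p = 0.021). The 30 h counts of members, 4 higher and 2 lower, stayed within 3 to 6 and 2 to 3. The count lower at 21 h was 1 in place of 2 under quantile normalization, equal medians, control scaling, no filter, the mean of probe sets, the replicate block, probe sets kept separate and only the arrays compared. Control scaling gave 0 higher and 1 lower at 3 h, 1 lower at 7 h and 0 lower at 14 h. No filter and the mean of probe sets each gave 1 lower at 3 h. A 2-fold minimum gave 0 higher and 1 lower at 3 h, 1 and 1 at 7 h, 3 and 0 at 14 h and 3 and 0 at 21 h. Only the arrays compared gave 1 higher at 3 h and 1 lower at 7 h. Leaving out single arrays gave 0 to 2 higher and 1 to 2 lower at 3 h, 1 to 2 lower at 7 h and 1 to 2 lower at 21 h. The cause was not tested, except that a 2-fold minimum by construction removes small changes.

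Replicate numbers were not taken as pairs: same-numbered arrays deviated together with correlations of -0.17 to 0.19, and 6 of 18 arrays correlated best with their own number. The replicate block changed the call of 1 member value, Psat1 at 21 h (-0.15, adjusted p = 0.0566), and gave 4668 genes higher and 4184 lower at 30 h beside 4651 and 4195.

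Over all tested genes, control scaling gave 463 higher and 285 lower at 3 h (1420 and 1871 in the main fit), 548 and 653 at 7 h (1944 and 2077), 2791 and 812 at 14 h (2828 and 2887), 2402 and 2327 at 21 h (3989 and 3635) and 4999 and 2585 at 30 h (4651 and 4195). Between neighbouring times it gave 127 and 173 for 7 h against 3 h (1248 and 654), 1312 and 158 for 14 h against 7 h (1469 and 1372), 122 and 1656 for 21 h against 14 h (1992 and 2230) and 1680 and 753 for 30 h against 21 h (2286 and 2864). A 2-fold minimum left 64 and 108 at 3 h, 206 and 168 at 7 h, 403 and 475 at 14 h, 778 and 1036 at 21 h and 1165 and 1662 at 30 h, and between neighbouring times 63 and 38, 48 and 92, 45 and 170, and 96 and 309. Fitting only the arrays compared gave 1068 and 1398 for 21 h against 14 h, and the count lower at 7 h than at 3 h became 428 when 3 h replicate 2 was left out and 404 when 3 h replicate 3 was.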
